A study of Mus musculus with 12 samples.

Results

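The 8 genes described here carry the insulin signal from the cell surface to glucose uptake: the receptor Insr, its substrates Irs1 and Irs2, the kinase Akt2, the glucose transporters Slc2a1, Slc2a3 and Slc2a4, and Tusc5, a partner of the Slc2a4 transporter. They are 8 of the 37750 rows of the expression table, each found by its gene symbol, and none shares its row with another gene. The genes were chosen by their role and with their levels in liposarcoma and in white adipose tissue already known, so the differences between the 2 tissues are given for them as a description, without a test. Other genes of the same pathway were taken from 5 lists and tested. These lists too were chosen with earlier results of these data known, so their tests are not independent of those results.

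The study profiled RNA of 2 tissues from Ad/NICD mice, whose adipocytes express the Notch1 intracellular domain, the part of the receptor that signals in the nucleus. LPS denotes liposarcoma, a malignant tumour of the fat lineage, with 8 libraries from animals of 9 to 12 months. WAT denotes white adipose tissue, with 4 libraries from animals of 3 weeks. Both groups carry the transgene on a mixed 129 x C57BL/6 background, and no tissue without it was included. The sources used here do not name the promoter that drives it. Age and tissue differ together between the groups and cannot be told apart. The labels call the libraries biological replicates.

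Insulin binds a receptor tyrosine kinase, which phosphorylates insulin receptor substrates. These recruit phosphoinositide 3-kinase, whose lipid product activates AKT kinases. In adipocytes and in muscle, AKT2 inactivates the RAB-GTPase-activating protein AS160, the product of Tbc1d4, and vesicles that hold the transporter GLUT4 then reach the plasma membrane. GLUT4 is encoded by Slc2a4, while Slc2a1 and Slc2a3 encode GLUT1 and GLUT3, which carry glucose without insulin.

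Levels are FPKM, a fragment count divided by transcript length and by library size, as the authors deposited them. FPKM summed to between 771665 and 996090 per library, and 12965 to 14248 rows reached 1 FPKM. Fragment totals were not given. From the lowest values above 0, LPS 1 was the shallowest library and WAT 1 the deepest, at about 2.6 times its depth. A single fragment of a 2 kb transcript stood for 0.0470 FPKM in LPS 1 and for 0.0181 FPKM in WAT 1. All 8 genes lay far above these values in nearly every library, so depth limits their comparison little. LPS 5 stood apart: its median ratio to the geometric mean of all libraries was 0.814, against 0.991 to 1.06 in the other 11.

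The tissue labels were compared with marker genes. The summed level of 7 adipocyte markers (Adipoq, Plin1, Cfd, Lep, Cidec, Retn and Lipe) was 2.43 to 38.5 FPKM in LPS and 4350 to 5300 FPKM in WAT. Lep was listed at 0 in LPS 3 and LPS 4, and Retn in LPS 6 and LPS 8. These markers of mature fat cells were thus near 0 in the tumours. WAT also held brown adipocyte transcripts, with a sum over 5 markers of 0.908 to 14.3 FPKM in LPS and 1508 to 2114 FPKM in WAT. The summed level of 6 pericyte markers, led by Rgs5, was 3354 to 7468 FPKM in LPS and 151 to 171 FPKM in WAT. For 6 endothelial markers the sum was 108 to 163 FPKM in LPS and 157 to 194 FPKM in WAT, but they did not move together. Emcn averaged 54.4 FPKM in LPS and 10.8 FPKM in WAT. Pecam1, Cdh5, Kdr and Tek had lower means in LPS, and Tie1 a similar one. Sums were 0.0986 to 11.0 FPKM in LPS and 34.7 to 55.2 FPKM in WAT for 3 T cell markers. For 5 Schwann cell markers they were 2.35 to 6.24 FPKM in LPS and 120 to 165 FPKM in WAT. The part of these cell types in the differences described here was not tested. Since both tissues are mixtures of cells, fewer cells of a type and less RNA per cell cannot be told apart in any value that follows.

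The insulin receptor was lower in every tumour than in any WAT library. Insr, at chr8:3122061-3279617 on the minus strand of GRCm38, was at 10.2, 8.43, 12.4, 17.3, 7.85, 11.4, 24.5 and 8.22 FPKM in LPS 1 to LPS 8, against 32.2, 33.2, 38.2 and 29.7 FPKM in WAT 1 to WAT 4. LPS 7 came nearest to WAT and LPS 5 was lowest. Its mean was 12.5 ± 5.74 FPKM in LPS (SD, n = 8) and 33.4 ± 3.56 FPKM in WAT (SD, n = 4), a log2 difference of −1.43 ± 0.26 (SE) on the scale of log2(FPKM + 1). The tumours thus held 37.6% of the WAT mean.

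The substrates, the docking proteins that the receptor phosphorylates, differed in how far they fell short of WAT. Irs1, at chr1:82233101-82291416 on the minus strand, was at 20.5, 9.27, 30.5, 13.1, 3.97, 8.04, 8.09 and 9.24 FPKM in LPS 1 to LPS 8, against 23.2, 27.2, 20.6 and 23.0 FPKM in WAT 1 to WAT 4. LPS 3 was above every WAT library, LPS 1 lay just under the lowest, and the remaining tumours were well below. The mean was 12.8 ± 8.61 FPKM in LPS and 23.5 ± 2.72 FPKM in WAT, with a log2 difference of −1.03 ± 0.38.

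Irs2, at chr8:10984681-11008458 on the minus strand, was the member with the deepest shortfall. It was at 1.79, 1.45, 1.53, 2.33, 1.99, 3.59, 6.32 and 0.699 FPKM in LPS 1 to LPS 8, against 10.0, 21.0, 18.1 and 11.0 FPKM in WAT 1 to WAT 4. No tumour reached the lowest WAT library, and LPS 7 was again the highest tumour. The means were 2.46 ± 1.77 FPKM in LPS and 15.0 ± 5.38 FPKM in WAT, with a log2 difference of −2.28 ± 0.34, so that 16.4% of the WAT mean was present. The table's row for Irs2 runs on to base 11054541 and overlaps 9530052E02Rik, an annotated gene of the opposite strand, and the sources used here do not state the strand setting of the counting. Slc2a1, Insr and Irs1 also overlap annotated genes of the opposite strand. On their own strand, Slc2a1 overlaps Mir1957a and Slc2a3 overlaps Gm4482. A part of the fragments of these genes may belong there, and its size was not measured.

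With Irs3, the adipocyte substrate of rodents, taken into account, the make-up of the substrate pool differed on average too. Irs1 formed 74.3 ± 13.6% of the summed FPKM of Irs1, Irs2 and Irs3 in LPS and 47.0 ± 5.03% in WAT. Irs2 formed 18.1 ± 13.2% in LPS and 29.3 ± 7.30% in WAT. The groups overlapped in both shares. Irs1 formed 49.1% in LPS 7, against 40.2% to 51.6% in WAT. The Irs2 share ran from 4.58% to 38.3% in LPS and from 22.3% to 35.9% in WAT. The sum itself was 6.19 to 33.4 FPKM in LPS and 44.9 to 58.5 FPKM in WAT, so the highest tumour was below the lowest WAT library.

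The starts of the substrate genes can be read beside these values, since Irs1 and Irs2 differed in how their levels varied between tumours. Below are the 250 bases upstream of each annotated start from RefSeq on GRCm38.p6, read 5′ to 3′ on the gene's own strand, Irs1 from chr1:82291440-82291689 and Irs2 from chr8:11008930-11009179, both minus. Capitals mark the E-box CACGTG, the NF-Y motif CCAAT, which reads ATTGG on the other strand, and the GC box GGGCGG, which reads as CCGCCC there.
Irs1 promoter: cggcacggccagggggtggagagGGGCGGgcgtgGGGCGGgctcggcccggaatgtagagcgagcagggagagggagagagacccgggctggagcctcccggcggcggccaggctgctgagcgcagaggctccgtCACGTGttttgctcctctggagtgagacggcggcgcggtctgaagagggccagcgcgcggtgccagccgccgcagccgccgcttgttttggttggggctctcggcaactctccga
Irs2 promoter: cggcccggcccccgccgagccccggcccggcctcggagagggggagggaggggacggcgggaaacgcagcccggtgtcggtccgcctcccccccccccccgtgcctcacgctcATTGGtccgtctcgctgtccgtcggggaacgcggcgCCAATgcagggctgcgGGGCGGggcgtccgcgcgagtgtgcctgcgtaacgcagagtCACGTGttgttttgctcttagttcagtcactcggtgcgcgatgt
Both hold 1 CACGTG, a palindrome whose letters also contain the hypoxia-inducible factor core ACGTG on each strand. Of 32851 RefSeq promoters of the same length, 6.02% hold CACGTG and 16.6% hold ACGTG or its complement CACGT. Irs2 also holds 2 NF-Y motifs, found in 33.9% of promoters, and Irs1 holds none in this window. GC boxes, present in 32.7% of promoters, numbered 2 in Irs1 and 1 in Irs2. Base composition was alike, at 72.4% GC for Irs1 and 72.8% GC for Irs2, against a median of 52.4% over all promoters. These are matches of letters only and say nothing of binding.

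Akt2, the AKT kinase best known for insulin-stimulated glucose uptake, varied least among the tumours. The gene lies at chr7:27591552-27640826 on the plus strand. Its level was 24.7, 19.2, 24.8, 27.5, 12.6, 25.5, 21.7 and 23.8 FPKM in LPS 1 to LPS 8, against 86.9, 77.7, 95.6 and 96.8 FPKM in WAT 1 to WAT 4. The groups were far apart, with the highest tumour well short of the lowest WAT library, and LPS 5 was the lowest tumour. The mean was 22.5 ± 4.70 FPKM in LPS and 89.2 ± 8.88 FPKM in WAT, 25.2% of the WAT mean, with a log2 difference of −1.97 ± 0.17.

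The sum of Akt1 and Akt2 differed far less than Akt2 alone. It was 119 ± 17.0 FPKM in LPS and 137 ± 7.92 FPKM in WAT, and the groups overlapped. Akt1, which acts more broadly in growth and survival, made up 80.9 ± 4.65% of it in LPS and 35.2 ± 3.01% in WAT. Akt2 made up 19.1 ± 4.65% in LPS and 64.8 ± 3.01% in WAT. The more abundant of the pair was thus Akt1 in all 8 tumours and Akt2 in all 4 WAT libraries.

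**Figure D1:**
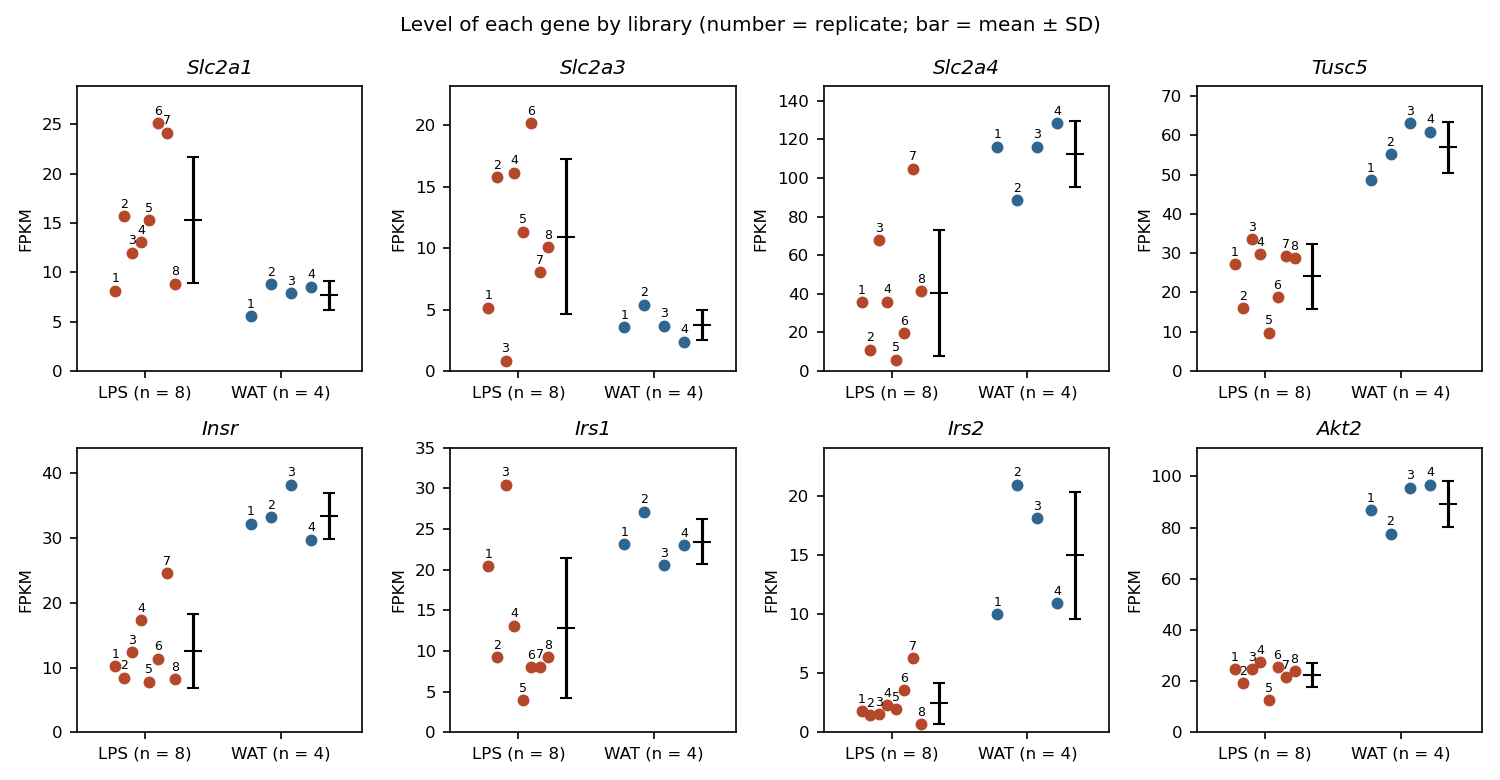
FPKM of each of the 8 genes (vertical axes, each from 0) in the 8 LPS and the 4 WAT libraries, with the replicate number over each point and the mean ± SD beside each group. Akt2, Insr, Irs2 and Tusc5 show no overlap between the groups, while single tumours reach or pass the WAT range for Irs1 (LPS 3 at 30.5) and Slc2a4 (LPS 7 at 105).

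Slc2a4, the insulin-regulated transporter of fat and muscle, spanned the widest range of levels of the genes that were lower on average in tumours. It lies at chr11:69942539-69948188 on the minus strand. Slc2a4 was at 35.8, 11.1, 67.8, 35.9, 5.91, 19.5, 105 and 41.3 FPKM in LPS 1 to LPS 8, against 116, 88.3, 116 and 128 FPKM in WAT 1 to WAT 4. LPS 7 lay inside the WAT range and the other 7 tumours below it, with LPS 3 next and LPS 5 lowest. The highest tumour had 17.7 times the level of the lowest. The means were 40.3 ± 32.6 FPKM in LPS and 112 ± 17.0 FPKM in WAT, with a log2 difference of −1.89 ± 0.59.

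Tusc5, also named Trarg1, encodes a membrane protein of GLUT4 vesicles, and it was present in every tumour. The gene lies at chr11:76679808-76698664 on the plus strand. Tusc5 was at 27.2, 16.0, 33.5, 29.8, 9.77, 18.9, 29.3 and 28.7 FPKM in LPS 1 to LPS 8, against 48.7, 55.2, 63.1 and 61.0 FPKM in WAT 1 to WAT 4. All tumours were below all WAT libraries, but 5 of the 8 lay close together near the top of their range. The means were 24.2 ± 8.27 FPKM in LPS and 57.0 ± 6.47 FPKM in WAT, with a log2 difference of −1.29 ± 0.28.

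The tumours kept far more of Slc2a4 and Tusc5 than of 7 markers of mature fat cells. As a share of the WAT mean, Slc2a4 stood at 93.3% in LPS 7, 60.4% in LPS 3 and 5.26% in LPS 5, the lowest. Tusc5 stood at 58.8% in LPS 3, 51.4% in LPS 7 and 17.1% in LPS 5. In the same tumours, the 7 adipocyte markers averaged 0.0330% to 1.04% of their WAT means, and the highest single value was 7.08%, of Plin1 in LPS 1. Slc2a4 and Tusc5 each kept a larger share than every one of the 7 markers in 8 of 8 tumours. This was not particular to them, since Insr, Irs1, Irs2 and Akt2 did so too, with Akt2 at 14.2% to 30.8%. How many of all rows do so was not counted. The 7 markers were near 0 in the tumours, while the median log2 difference over all 14821 rows tested was −0.05. A larger share than these markers is therefore not read as special retention. Other genes of fat cells, chosen after their values were seen, were kept as well: Pparg, the master regulator of fat cell formation, averaged 35.9% of its WAT mean and reached 95.9% in LPS 3. Fabp4, the fatty acid carrier of fat cells, averaged 8.34% and reached 27.8% in LPS 1. LPS 7 was the one tumour with Slc2a4 near the WAT level, and no tumour had Tusc5 there.

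**Figure D2:**
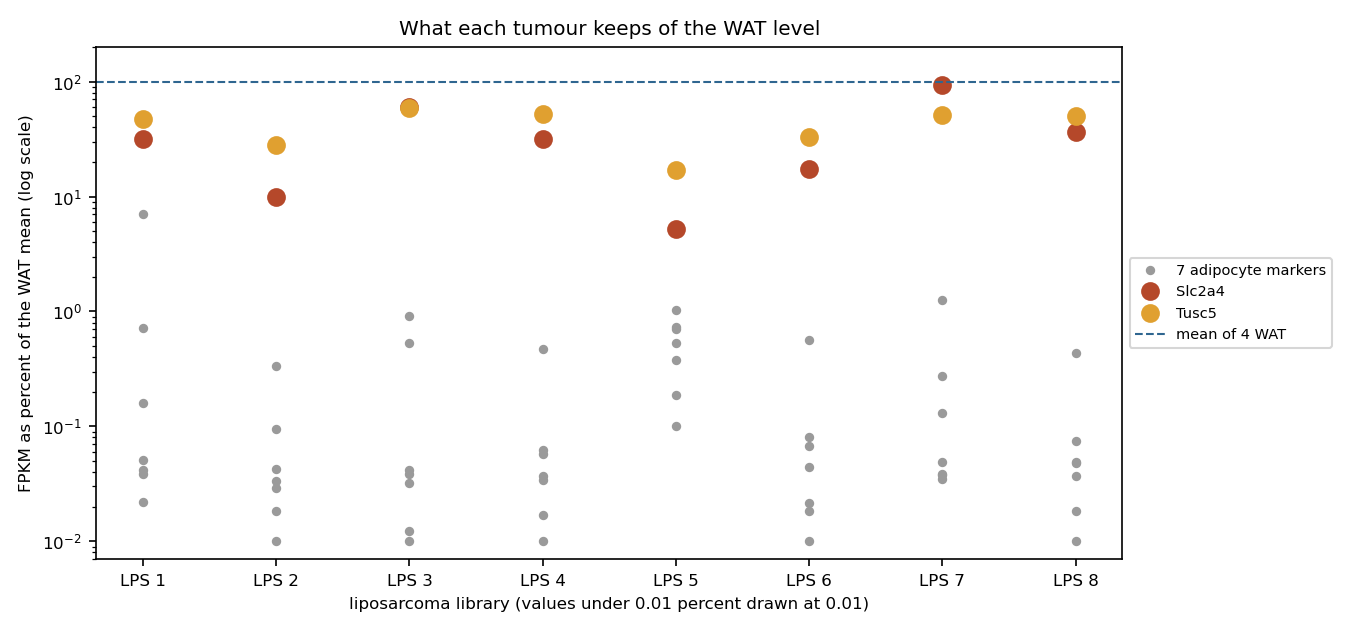
FPKM in each LPS library as a percent of the mean of the 4 WAT libraries, on a log scale, for Slc2a4, Tusc5 and 7 adipocyte markers (grey), with values under 0.01% drawn at 0.01%. Slc2a4 runs from 5.26% to 93.3% and Tusc5 from 17.1% to 58.8%, above all 7 markers in each tumour.

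Skeletal muscle also expresses Slc2a4, and muscle transcripts varied between libraries. The summed level of 8 muscle markers (Ckm, Myh1, Myh2, Myh4, Tnnt3, Mylpf, Ttn and Mb) was 1.28 to 506 FPKM in LPS and 6.65 to 1880 FPKM in WAT. In LPS 7, where Slc2a4 was highest among tumours, the sum was 1.46 FPKM, with Mylpf at 0 and Ckm at 0.0648 FPKM. LPS 8 had the highest sum among tumours, 506 FPKM, with Slc2a4 at 41.3 FPKM. In WAT, the sums of 1880 and 1642 FPKM in WAT 1 and WAT 4 went with 116 and 128 FPKM of Slc2a4. The sum of 235 FPKM in WAT 3 went with 116 FPKM of Slc2a4, and the sum of 6.65 FPKM in WAT 2 with 88.3 FPKM. The part of muscle in the level of Slc2a4 was not tested. Without WAT 1 and WAT 4, the log2 difference of Slc2a4 was −1.76.

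The genes whose levels followed Slc2a4 most closely over the 8 tumours had higher means in tumours than in WAT. Likeness was the root-mean-square difference of log2(FPKM + 1) after centring each gene on its LPS mean, over 14179 rows, and Slc2a4 itself had a spread of 1.21 on that measure. The nearest was Agtr1a, the angiotensin II receptor of vessel-wall and other cells, at 0.36. Agtr1a was at 47.3, 29.2, 143, 69.0, 21.4, 36.3, 215 and 69.5 FPKM in LPS 1 to LPS 8, against 5.64 to 11.0 FPKM in WAT. As for Slc2a4, LPS 7 was highest, LPS 3 second and LPS 5 lowest, but here every tumour was above every WAT library.

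Pacsin3, Steap4, Angptl2, Pld1 and Gpr182 came next, at 0.44 to 0.51. Their LPS means were all above their WAT means, as with Steap4, a metalloreductase, at 515 FPKM in LPS and 95.1 FPKM in WAT. Tusc5 ranked at place 83. The measure counts differences in amplitude as well as in order, and a gene with no variation at all would score 1.21, so a late place does not show that a gene's tumours are ordered otherwise. These likenesses describe 8 tumours, rest on shared libraries that include LPS 5 with its low scale, and carry no test.

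Tusc5 had other neighbours. Lpin1, a phosphatidate phosphatase of lipid synthesis, was nearest, at 0.10 against a spread of 0.54 for Tusc5. Lpin1 was at 3.18 to 12.2 FPKM in LPS and 69.1 to 133 FPKM in WAT, and LPS 3 was its highest tumour and LPS 5 its lowest, as for Tusc5. Gm16515, Gm15497, Gm15402, Gpank1 and Polr3gl followed at 0.14 to 0.18, and Akt2 ranked at place 409. In all 6 neighbours and in Tusc5, LPS 5 was the lowest tumour.

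The 2 transporters that need no insulin had higher means in tumours. Slc2a1, the widely expressed basal transporter, lies at chr4:119108711-119137983 on the plus strand. It was at 8.15, 15.7, 12.0, 13.0, 15.3, 25.1, 24.1 and 8.85 FPKM in LPS 1 to LPS 8, against 5.55, 8.77, 7.89 and 8.54 FPKM in WAT 1 to WAT 4. LPS 6 and LPS 7 stood out at the top, LPS 1 lay inside the WAT range, and LPS 8 was just above it. The means were 15.3 ± 6.36 FPKM in LPS and 7.69 ± 1.47 FPKM in WAT, with a log2 difference of 0.83 ± 0.27.

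Slc2a3, a high-affinity transporter found in neurons and blood cells among others, was less even. It lies at chr6:122727809-122801640 on the minus strand. It was at 5.15, 15.8, 0.839, 16.1, 11.3, 20.2, 8.04 and 10.1 FPKM in LPS 1 to LPS 8, against 3.57, 5.38, 3.68 and 2.39 FPKM in WAT 1 to WAT 4. LPS 6 was highest, 6 tumours were above the WAT range, LPS 1 was inside it, and LPS 3 was below it. The means were 10.9 ± 6.33 FPKM in LPS and 3.75 ± 1.23 FPKM in WAT, with a log2 difference of 1.08 ± 0.53.

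Blood cells can contribute Slc2a1 and Slc2a3, and their markers were set beside them. The summed level of 6 erythroid markers was 13.6 to 2593 FPKM in LPS, the highest in LPS 5, and 1018 to 2376 FPKM in WAT. LPS 7, with Slc2a1 at 24.1 FPKM, had the lowest erythroid sum, 13.6 FPKM. The sum of 5 neutrophil markers was 0 to 159 FPKM in LPS and 2.48 to 41.2 FPKM in WAT. It was 159 FPKM in LPS 5, where Slc2a3 was at 11.3 FPKM, and 8.36 FPKM in LPS 6, where Slc2a3 was highest. The neutrophil marker Ly6g was listed at 0 in all libraries but LPS 8. The sum of 6 macrophage markers was 172 to 649 FPKM in LPS and 143 to 163 FPKM in WAT, and the sum of 4 platelet markers was 17.7 to 109 FPKM in LPS and 28.0 to 43.9 FPKM in WAT. The part of erythroid cells, neutrophils, macrophages and platelets in the levels of both transporters was not tested.

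The start of Slc2a1 is shown as that of the member with the higher, insulin-independent transporter transcript. The 250 bases come from RefSeq on GRCm38.p6, chr4:119108495-119108744, plus strand, with GC boxes (CCGCCC, the complement of GGGCGG) and the hypoxia-inducible factor core ACGTG in capitals.
Slc2a1 promoter: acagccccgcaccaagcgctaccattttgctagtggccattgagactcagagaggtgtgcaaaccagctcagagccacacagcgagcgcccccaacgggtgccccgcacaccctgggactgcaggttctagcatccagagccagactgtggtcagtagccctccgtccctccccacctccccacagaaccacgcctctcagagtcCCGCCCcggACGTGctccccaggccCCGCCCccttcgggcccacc
The window holds 1 ACGTG and 2 GC boxes at 66.4% GC, and CACGTG is not in it. The ACGTG letters are thus common to the 3 windows shown. Among the windows of Akt2, which are not shown, chr7:27591302-27591551 holds ACGTG and the others do not.

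The balance between transporters differed between tumours more than between WAT libraries. Slc2a4 formed 53.9 ± 25.7% of the summed FPKM of Slc2a1, Slc2a3 and Slc2a4 in LPS and 90.5 ± 2.97% in WAT. The share ran from 18.2% in LPS 5 to 84.1% in LPS 3, so every tumour was below the lowest WAT library at 86.2%. In LPS 2, LPS 5 and LPS 6, Slc2a1 and Slc2a3 each exceeded Slc2a4. The sum of the 3 transporters was 32.5 to 137 FPKM in LPS and 102 to 139 FPKM in WAT, and only LPS 7 reached the WAT range.

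**Figure D3:**
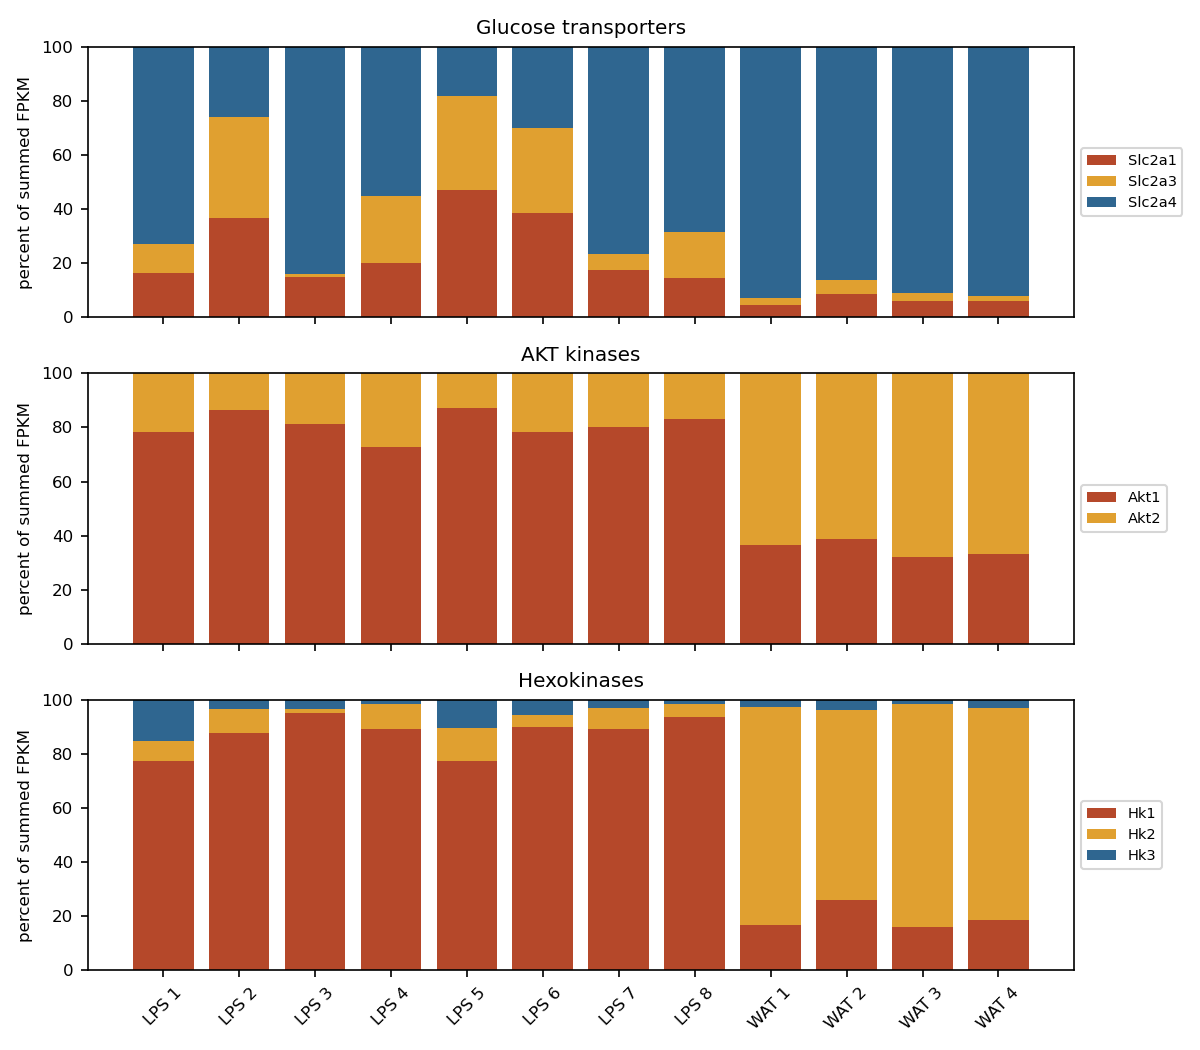
Share of the summed FPKM held by each gene (stacked bars, 0 to 100%) for 3 glucose transporters, the kinases Akt1 and Akt2, and 3 hexokinases in each LPS and WAT library. Slc2a4 holds 18.2% to 84.1% in LPS and 86.2% to 92.7% in WAT, Akt1 exceeds Akt2 in all LPS libraries, and Hk1 exceeds Hk2 in all LPS libraries.

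Across all 8 genes, 4 had every tumour below every WAT library (Insr, Irs2, Akt2 and Tusc5) and 0 had every tumour above. Among the 14821 rows that reached 1 FPKM in 4 or more of the 12 libraries, 20.9% had every tumour below and 11.8% had every tumour above. Since the genes were chosen with these levels known, nothing is read from that count. Dividing each library by its median ratio brought LPS 5 to 7.26 FPKM of Slc2a4, 12.0 FPKM of Tusc5 and 15.5 FPKM of Akt2. It remained the lowest tumour for these 3 genes, while for Insr the lowest became LPS 8.

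Age within the tumours was not used to choose the genes and was tested as a slope per month over the 8 LPS libraries. In limma's test with Benjamini-Hochberg adjustment, 0 of the 8 genes and 0 of 13280 rows (0%) had a slope that passed. At an unadjusted p under 0.05 there were 0 of the 8 genes and 228 rows. Slc2a4 had a log2 slope of 0.31 ± 0.40 per month (SE) and Irs1 one of 0.04 ± 0.27. The steepest relative to its error was Insr, at 0.23 ± 0.16 per month with an unadjusted p of 0.188 in the limma fit across all rows. The size of slope that could be found in 8 tumours was not tested.

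The rest of the pathway was tested through 5 lists that held 93 genes, of which 80 had a row of their own that passed the filter, 3 of them through WAT alone. By limma with Benjamini-Hochberg adjustment, 13 were higher, 27 were lower and 40 did not pass, with a median log2 difference of −0.12. Without the 3, 24 of 77 were lower. Over all 14821 rows tested, 46.0% passed, 18.9% higher and 27.0% lower, with a median of −0.05. Members of each list moved in both directions. Quantile normalization gave all rows a median of 0.10, with 24 higher and 23 lower in the lists and 4082 higher and 3459 lower over all rows. After median-ratio scaling, 19 genes of the lists were higher and 25 lower.

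Around the receptor, 2 of 17 tested genes were higher, 5 lower and 10 not called, with a median log2 difference of 0.13. For this list and the next ones, the shares over all rows tested were 18.9% higher and 27.0% lower. Irs3, the rodent adipocyte substrate, averaged 1.30 ± 0.84 FPKM in LPS and 11.7 ± 0.98 FPKM in WAT (log2 −2.55 ± 0.26, limma adjusted p = 4.6e-06). Sh2b2, the adaptor APS that binds the activated receptor, fell to 4.01 ± 1.33 FPKM in LPS, against 25.3 ± 2.25 FPKM in WAT (log2 −2.42 ± 0.18, limma adjusted p = 2.3e-07). Grb14, an inhibitor of the receptor kinase, was also lower, at 3.03 ± 1.63 FPKM in LPS and 10.8 ± 1.85 FPKM in WAT.

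The 2 genes that were higher are docking proteins for many growth factor receptors. Gab1 averaged 24.1 ± 12.8 FPKM in LPS and 5.48 ± 1.39 FPKM in WAT (log2 1.83 ± 0.32, limma adjusted p = 0.00044). Shc1 averaged 54.8 ± 15.1 FPKM in LPS and 25.2 ± 0.989 FPKM in WAT (log2 1.04 ± 0.21, limma adjusted p = 0.0015). Grb10, a further adaptor that restrains the receptor and the most abundant gene here that did not pass, averaged 71.9 ± 36.3 FPKM in LPS and 37.1 ± 5.32 FPKM in WAT. Without LPS 1 it passed, with a limma adjusted p = 0.0174 in a range of 0.0174 to 0.663 over the alternatives. After median-ratio scaling 4 genes of the list were higher, and after quantile normalization 7.

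Among PI3K and AKT genes, 6 of 25 were higher, 6 lower and 13 not called, with a median of −0.11. Pik3r3, a regulatory subunit of PI3K, averaged 38.6 ± 13.5 FPKM in LPS and 4.88 ± 0.754 FPKM in WAT (log2 2.67 ± 0.27, limma adjusted p = 3.3e-06). Pik3cd, the catalytic subunit delta, averaged 47.8 ± 12.7 FPKM in LPS and 17.5 ± 5.16 FPKM in WAT. Pik3r1, the main regulatory subunit, did not pass, at 75.7 ± 25.8 FPKM in LPS and 81.1 ± 10.2 FPKM in WAT.

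The lower genes of that list included effectors below AKT. Pde3b, the phosphodiesterase through which insulin restrains fat breakdown, averaged 7.88 ± 4.74 FPKM in LPS and 69.3 ± 18.5 FPKM in WAT (log2 −3.13 ± 0.39, limma adjusted p = 2.1e-05). Foxo1, the transcription factor that AKT keeps out of the nucleus, averaged 2.80 ± 0.755 FPKM in LPS and 28.1 ± 1.22 FPKM in WAT (log2 −2.96 ± 0.16, limma adjusted p = 8.9e-09). The catalytic subunit Pik3cb was at 3.83 ± 1.21 FPKM in LPS and 8.10 ± 1.95 FPKM in WAT. Akt1, the sister kinase of Akt2, passed in the other direction (log2 0.97 ± 0.14, limma adjusted p = 6.4e-05), at 73.5 to 122 FPKM in LPS and 45.2 to 50.4 FPKM in WAT.

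Of the genes for GLUT4 vesicle traffic, 3 of 20 were higher, 7 lower and 10 not called, with a median of −0.09. Tbc1d4, which encodes AS160, averaged 1.98 ± 0.623 FPKM in LPS and 26.7 ± 3.26 FPKM in WAT (log2 −3.23 ± 0.17, limma adjusted p = 7.9e-09). Its relative Tbc1d1, better known from muscle, moved in the other direction, at 64.2 ± 12.4 FPKM in LPS and 14.7 ± 3.06 FPKM in WAT (log2 2.06 ± 0.16, limma adjusted p = 4.3e-07). The more abundant of this pair was thus Tbc1d1 in LPS and Tbc1d4 in WAT.

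Ralgapa2, a subunit of the RAL-inhibiting complex that AKT2 controls, averaged 4.87 ± 1.61 FPKM in LPS and 60.7 ± 10.6 FPKM in WAT (log2 −3.45 ± 0.26, limma adjusted p = 2.8e-07). Stxbp4, a binding partner of syntaxin 4, was higher at 6.64 ± 1.81 FPKM in LPS and 2.71 ± 0.525 FPKM in WAT. Aspscr1, which encodes the GLUT4 tether TUG, averaged 33.0 ± 6.56 FPKM in LPS and 22.3 ± 0.503 FPKM in WAT (log2 0.52 ± 0.14, limma adjusted p = 0.010), and without WAT 1 and WAT 4 it did not pass (limma adjusted p = 0.0784, in a range of 0.0021 to 0.0784). Lrp1, a cargo receptor of the vesicles, did not pass at 85.2 ± 13.5 FPKM in LPS and 70.7 ± 5.51 FPKM in WAT, though it did after quantile normalization (limma adjusted p = 0.0133, in a range of 0.0133 to 0.341).

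Of the other hexose transporters and hexokinases, 1 of 9 tested genes was higher, 2 lower (1 without Slc2a5, which passed the filter through WAT alone) and 6 not called, with a median of −0.08. Hexokinases trap glucose in the cell, and their make-up differed. Hk1, the widely expressed form, averaged 41.9 ± 8.62 FPKM in LPS and 11.4 ± 1.18 FPKM in WAT (log2 1.78 ± 0.15, limma adjusted p = 6.1e-07). Hk2, the insulin-responsive form of fat and muscle, averaged 3.21 ± 1.35 FPKM in LPS and 47.9 ± 13.9 FPKM in WAT (log2 −3.57 ± 0.28, limma adjusted p = 4.2e-07).

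Hk1 therefore held 87.4 ± 6.64% of the summed FPKM of Hk1, Hk2 and Hk3 in LPS and 19.4 ± 4.64% in WAT. The fructose transporter Slc2a5 was at 0 to 0.122 FPKM in LPS and 7.00 to 17.8 FPKM in WAT, so it entered the test through the WAT libraries alone and its call as lower was fixed by the filter. Slc2a8, an intracellular hexose transporter, had equal means, at 10.2 ± 3.70 FPKM in LPS and 10.2 ± 1.69 FPKM in WAT, with a log2 difference of −0.08 ± 0.29 that did not pass.

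In the list of transcription factors known to act on Slc2a4, 7 of 9 tested genes were lower, 1 higher and 1 not called. Their median log2 difference was −2.38. The list also holds the coactivator Ppargc1a and a pseudogene, both among the lower genes. Mlxipl and Ppargc1a reached 1 FPKM in WAT alone, so the filter fixed their direction, and without them 5 of 7 were lower with a median of −1.05. Mlxipl, the carbohydrate-response factor ChREBP, was at 0 to 0.377 FPKM in LPS and 28.0 to 44.5 FPKM in WAT. Cebpa, a driver of terminal fat cell differentiation, averaged 4.77 ± 2.49 FPKM in LPS and 177 ± 10.7 FPKM in WAT (log2 −5.07 ± 0.30, limma adjusted p = 2.4e-08). Klf15, a Krüppel-like factor of fat and muscle, averaged 3.08 ± 5.00 FPKM in LPS and 30.3 ± 3.25 FPKM in WAT, with 12.3 FPKM in LPS 7 and 9.97 FPKM in LPS 4. Cebpa and Klf15 were highest among tumours in LPS 7, Cebpa at 9.24 FPKM, as Slc2a4 was. In LPS 3, the next tumour for Slc2a4, Klf15 was at its lowest, 0.0764 FPKM, and Cebpa was at 3.51 FPKM. Each time a WAT library was left out, 4 of the list were lower, as Mlxipl and the coactivator Ppargc1a then miss the filter and Pparg does not pass.

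Pparg set the tumours apart from each other. It was at 82.2, 3.56, 94.2, 10.3, 6.43, 2.93, 66.5 and 16.4 FPKM in LPS 1 to LPS 8, against 101, 70.4, 87.5 and 134 FPKM in WAT 1 to WAT 4. LPS 1, LPS 3 and LPS 7 were near or inside the WAT range, and the other 5 tumours far below it. The log2 difference was −2.38 ± 0.88 (limma adjusted p = 0.041), and the call was lost with no filter, after quantile normalization, and when WAT 1, WAT 2, WAT 3, WAT 4, LPS 2, LPS 4, LPS 5, LPS 6 or LPS 8 was left out, with adjusted p-values of 0.0176 to 0.242 over all alternatives. Slc2a4 was also high in LPS 3 and LPS 7, but in LPS 1 it was at 35.8 FPKM, near its 35.9 FPKM in LPS 4. The part of Pparg in the level of Slc2a4 was not tested.

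Mef2a, a factor that binds the Slc2a4 promoter in muscle and fat, was the 1 higher gene of the list, at 56.3 ± 13.0 FPKM in LPS and 21.7 ± 1.24 FPKM in WAT (log2 1.30 ± 0.18, limma adjusted p = 5.4e-05). Its partner Mef2d did not pass, at 22.8 ± 4.75 FPKM in LPS and 24.4 ± 1.66 FPKM in WAT.

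**Figure D4:**
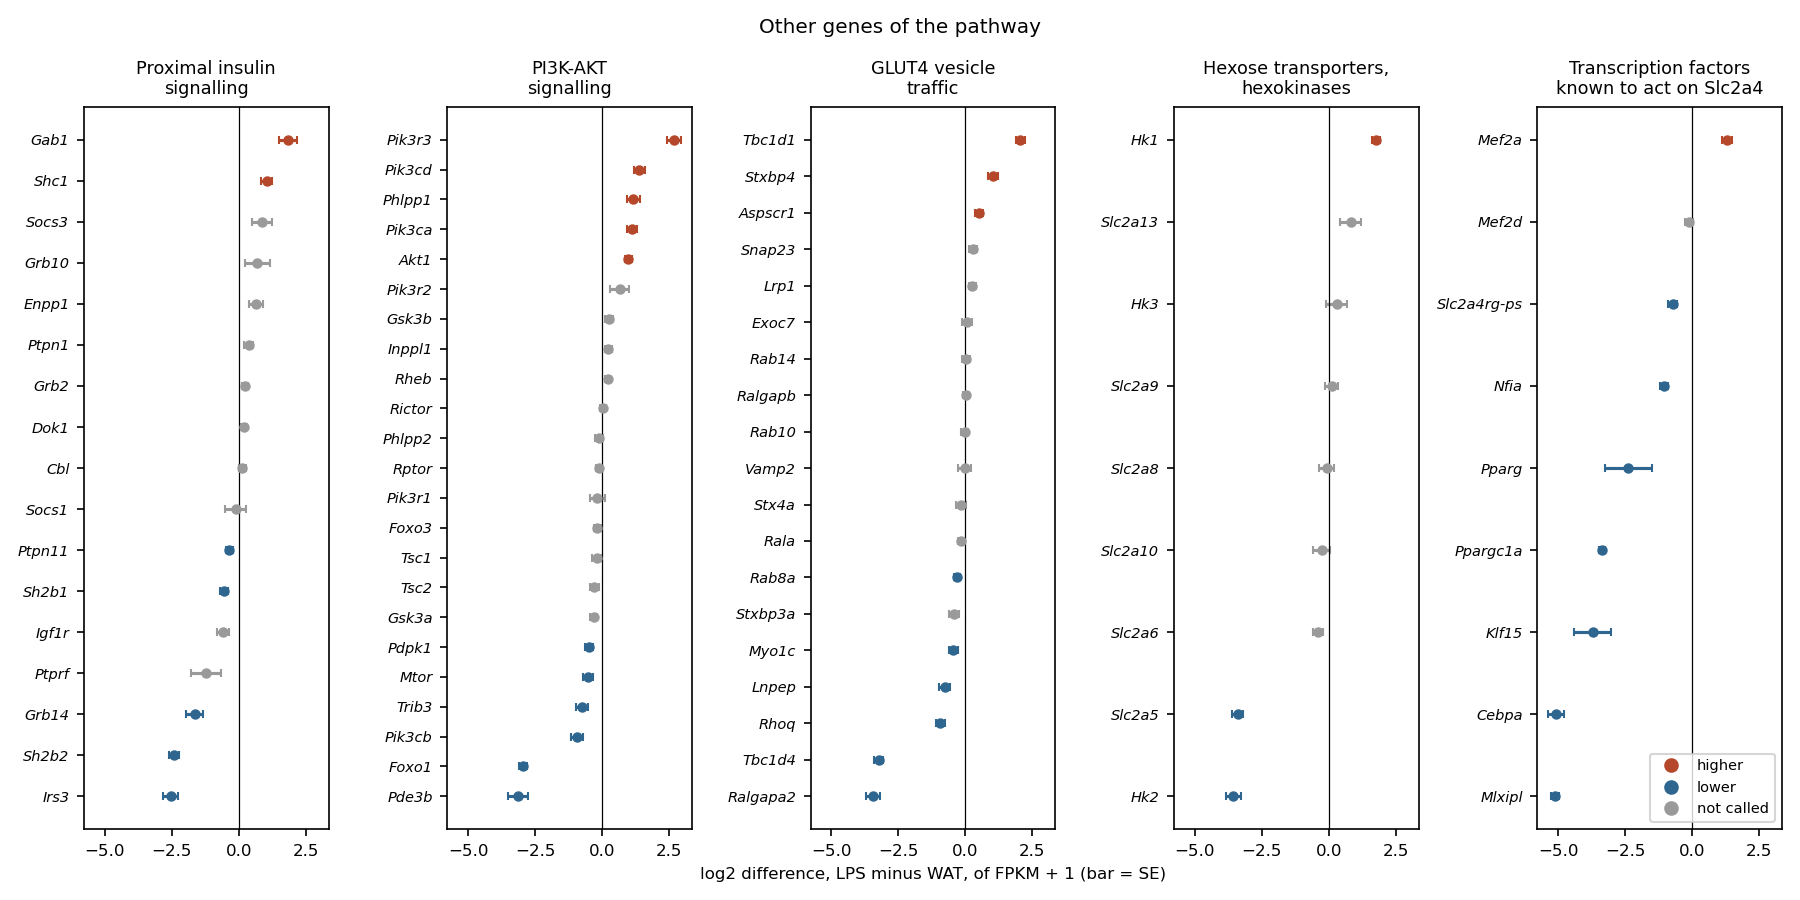
Log2 difference of LPS minus WAT on the log2(FPKM + 1) scale with its SE (horizontal axis) for 77 of the 80 tested genes of the 5 lists, coloured by call: 12 higher, 26 lower and 39 not called. The transcription factor list, which also holds a coactivator and a pseudogene, has a median of −2.38. Without the 2 genes that passed the filter through WAT alone it is −1.05. The other 4 lists have medians between −0.11 and 0.13.

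The neighbours of Slc2a1 and Irs1 over the tumours were again different genes. Got1, the cytosolic aspartate aminotransferase, was nearest to Slc2a1 at 0.20, followed by Slc3a2, the heavy chain of amino acid transporters, at 0.22, against a spread of 0.52 for Slc2a1. A430105I19Rik, Mafk, Fndc3a and Gm26703 came next. Among the 8 genes, Irs2 was nearest to Slc2a1, at place 62, with both high in LPS 6 and LPS 7. Got1 was at 11.7 to 36.0 FPKM in LPS and 6.02 to 13.3 FPKM in WAT, so it too had the higher mean in tumours.

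Irs1 was followed most closely by Zfp423, a factor of preadipocyte commitment, at 0.23 against a spread of 0.77 for Irs1. Zfp423 was at 4.42 to 19.6 FPKM in LPS and 9.10 to 16.0 FPKM in WAT, and the groups overlapped as they did for Irs1. Sept6, Fbxw8, St3gal2, H2-DMb2 and Fsd2 came next. Insr, the receptor that acts on Irs1, was highest in LPS 7, where Irs1 was at 8.09 FPKM, and Irs1 was highest in LPS 3, where Insr was at 12.4 FPKM.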

How the data were processed

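RNA was extracted with Trizol from frozen tissue, depleted of ribosomal RNA (Ribo-Zero Gold) and made into TruSeq Stranded Total RNA libraries, per the labels' protocols. The authors deposited 1 table of FPKM values per gene locus and library. The submitters' processing notes name Cuffdiff 2.2.1, Cufflinks 2.2.1, TopHat2 2.1.0, Bowtie2 and Trimmomatic, and the build GRCm38, without roles. Whether FPKM were scaled further between libraries, and the strand setting, are not given in the sources used here. The 828 rows that join several gene names entered the tests but not the lists, so Sort1, Nr1h3 and Srebf1 are not reported.

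All tests were two-sided. They were made on log2(FPKM + 1) with limma 3.58.1 (R 4.3.3), using empirical Bayes moderation with the trend and robust options. P-values were adjusted by Benjamini-Hochberg over all rows tested, with a threshold of 0.05. This scale understates changes of low genes. Rows needed at least 1 FPKM in at least 4 libraries. The fits were tested on simulated data. The members and lists were chosen with earlier results of these data known. Named pathway genes were the 3 called with the largest log2 difference each way per list, the most abundant not called, and Pparg, and 3 genes of the lists are counted but not reported by name. Akt1, Hk3, Ppargc1a, Fabp4 and Ckm were named after their values were seen. Alternatives were other pseudocounts, no filter, other scalings, plain empirical Bayes, a replicate block and leaving out libraries. Gene positions are from GENCODE M21, which is on GRCm38. RefSeq promoters matched 4 of the 8 genes: Slc2a1, Irs1, Irs2 and Akt2. Analyses of tables used Python 3.11.15 with pandas 2.3.3.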

Additional observations from a re-analysis of the deposited data

Results flagged for a closer look

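In 76 groups of libraries (the 8 genes and the 30 named pathway genes, in LPS and in WAT), 7 held a library far from the others of its group, where chance flags about 1 in 20 groups. None was among the 8 genes. In LPS, Mlxipl was at 0.3767 FPKM in LPS 1, above the other tumours. In WAT, Pik3cd at 25.18 FPKM in WAT 2, Pik3r1 at 96.38 FPKM in WAT 1, Slc2a8 at 12.76 FPKM in WAT 4 and Mef2a at 23.59 FPKM in WAT 4 were above the other 3 libraries. Foxo1 at 26.24 FPKM and Lrp1 at 62.53 FPKM, both in WAT 2, were below the other 3.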

How the results depend on the processing

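For the 8 genes the sign of the log2 difference was the same under all 20 alternatives: it ran from −2.15 to −1.58 for Slc2a4, from −1.23 to −0.46 for Irs1 and from 0.70 to 1.42 for Slc2a3. For Irs2 it was −1.42 with a pseudocount of 5, against −2.28. Quantile normalization gave 24 higher pathway genes against 13, with 7 around the receptor (4 after median-ratio scaling, against 2), 5 in GLUT4 traffic against 3, and 2 among hexose genes against 1; the cause was not tested. An alternative added after the data were seen left out WAT 1 and WAT 4, which hold the most skeletal muscle transcripts. Calls were then fewer: 1402 higher and 2114 lower over all rows, against 2806 and 4007. Sample number and muscle transcripts changed together there and cannot be told apart. In the lists 17 were then lower against 27, namely 3 against 5 around the receptor, 4 against 7 in GLUT4 traffic, 1 against 2 among hexose genes and 4 against 7 among transcription factors. With no filter, 4 hexose genes were lower. Leaving out single libraries gave 1 to 2 higher and 1 to 2 lower hexose genes and 4 to 7 lower transcription factors, and the lowest values came with each WAT library left out, when fewer genes pass the filter. The 2 higher hexose genes came without LPS 4. Over the same runs, 13 to 17 pathway genes were higher and 19 to 28 lower. Called age slopes of the 8 genes stayed at 0 in all alternatives run. LPS and WAT replicates of the same number share only that number (correlations of their deviations −0.017, 0.017, 0.092 and 0.033). A replicate block gave 15 higher and 23 lower pathway genes, and Pparg no longer passed (log2 −1.93, limma adjusted p = 0.105). LPS 5 to LPS 8 have no WAT library of the same number. The difference under the block therefore rests on LPS 1 to LPS 4 against WAT 1 to WAT 4. The −0.46 of Irs1 and the 0.70 of Slc2a3 came from this block, so they describe fewer tumours.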
